A study of Mus musculus with 21 samples.

Results

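The genes described are 7 of the 24047 in the count table: the MHC class II genes H2-Ab1, H2-Aa, H2-Eb1, H2-DMa and H2-DMb1, the invariant chain gene Cd74, and Ciita. They were taken by symbol, and the set was chosen by the level of H2-Ab1 after 24 h of quisinostat against DMSO, from near 0 to clearly on. Values of that contrast are therefore given as a description with no test. The cells are SMB21, a mouse sonic hedgehog (SHH) medulloblastoma line. Quisinostat (labelled JNJ), an inhibitor of histone deacetylases (HDACs), was given for 2 h or 24 h, with DMSO as the control at each time. In the hairpin groups, virally delivered short hairpin RNAs targeted luciferase (shLuc), Hdac1 (shHdac1) or Hdac2 (shHdac2), under puromycin selection. Each of the 7 groups has 3 libraries, all from the same line, grown in DMEM/F12 with B-27. Since separate cultures are not stated for the libraries of a group, p-values measure only the spread among libraries, possibly technical.

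MHC class II molecules are pairs of an alpha and a beta chain that show peptides from endosomes to helper T cells. They are normally made by dendritic cells, macrophages and B cells, and by other cells after interferon gamma. The invariant chain, coded by Cd74, occupies the groove until the H2-DM pair exchanges its remnant for a peptide. Transcription rests on CIITA, a coactivator that binds no DNA itself. It docks on RFX, CREB and NF-Y proteins sitting on the conserved S, X and Y boxes of class II promoters.

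Totals of counted reads ran from 23094799 to 39341784 per library. At these depths 3 counts, used as the floor of detection, came to 0.0776 to 0.126 CPM (counts scaled to a common library total with edgeR's TMM factors). All 11 SHH medulloblastoma and granule progenitor markers (among them Atoh1, Gli1, Zic1 and Neurod1) averaged at least 1 CPM in every group. The hairpins lowered their own targets by edgeR's quasi-likelihood test with Benjamini-Hochberg adjustment over all genes. Hdac1 had 1041, 680 and 912 counts in shHdac1 against 2110, 2456 and 2581 in shLuc (log2 change -1.63, adjusted p = 0.000165). Hdac2 had 1579, 1336 and 1332 counts in shHdac2 against 7335, 7796 and 8838 in shLuc (log2 change -2.66, adjusted p = 3.49e-06).

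The promoters of 3 class II genes are shown because class II promoters are where CIITA docks. The reference used held no promoter of H2-Ab1 or Ciita, so the choice was limited to the genes that had one. Those shown took different levels after 24 h of JNJ: H2-Eb1 and H2-DMb1 were on, whereas H2-Aa stayed at a few reads. The sequences are those of RefSeq on GRCm38.p6, 250 bases before to 50 bases after the start, written 5′ to 3′ on the strand of the gene. Capitals mark matches on either strand to 3 short motifs. The core of the NF-Y site in the Y box is CCAAT, which reads as ATTGG on the other strand. Letters of the RFX site in the X box, searched on either strand, are AGCAAC. The half-site of CREB proteins is TGACG, which reads as CGTCA on the other strand.
H2-Aa, chr17:34287774-34288073, - strand: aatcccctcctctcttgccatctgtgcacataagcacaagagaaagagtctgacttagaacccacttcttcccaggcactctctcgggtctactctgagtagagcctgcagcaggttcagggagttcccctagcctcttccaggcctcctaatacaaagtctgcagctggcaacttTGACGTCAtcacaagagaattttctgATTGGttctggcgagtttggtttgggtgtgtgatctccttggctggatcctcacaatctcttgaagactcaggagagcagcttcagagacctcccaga
H2-Eb1, chr17:34305617-34305916, + strand: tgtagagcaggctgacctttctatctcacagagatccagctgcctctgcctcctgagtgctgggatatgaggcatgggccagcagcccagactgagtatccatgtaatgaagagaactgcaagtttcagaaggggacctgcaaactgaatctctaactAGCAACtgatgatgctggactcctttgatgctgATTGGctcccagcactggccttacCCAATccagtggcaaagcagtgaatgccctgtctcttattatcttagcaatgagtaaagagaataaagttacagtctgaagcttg
H2-DMb1, chr17:34152941-34153240, + strand: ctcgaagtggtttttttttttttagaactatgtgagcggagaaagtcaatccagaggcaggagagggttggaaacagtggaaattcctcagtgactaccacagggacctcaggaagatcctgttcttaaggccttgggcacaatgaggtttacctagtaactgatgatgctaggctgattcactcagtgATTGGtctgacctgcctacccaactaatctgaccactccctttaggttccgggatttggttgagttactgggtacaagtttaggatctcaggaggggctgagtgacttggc

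All 3 held ATTGG close to the start, 48 bases before it in H2-Aa, 59 in H2-Eb1 and 61 in H2-DMb1. H2-Eb1 also had CCAAT 35 bases before the start and AGCAAC 92 bases before it. H2-Aa had the overlapping letters TGACG and CGTCA 74 and 71 bases before the start. CCAAT on either strand was in 37.4% of the 32851 promoters of the table, AGCAAC in 14.8% and TGACG in 20.8%. AGCAAC followed within 40 bases by ATTGG was in 0.533% of promoters, and among those of the class II genes looked at only in that of H2-Eb1. Only exact letters were searched, so near variants were missed. Ahead of ATTGG, H2-Aa has ggcaac and H2-DMb1 has agtaac, which were not counted. H2-DMa has 2 starts in the table, of which only the second had a match, ATTGG 198 bases before it. These matches describe letters in a window and say nothing of binding.

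H2-Ab1 codes for the beta chain of the I-A class II molecule. After 24 h of JNJ it had 365, 213 and 393 counts, against 2, 2 and 0 after 24 h of DMSO. All 3 JNJ libraries were far above every other library of the series, of which the highest held 9 counts. Its level was 10.6 ± 4.44 CPM (SD, n = 3) with JNJ and 0.0364 ± 0.0317 CPM with DMSO. The ratio of summed counts over scaled totals was 278, with an exact 95% counting interval of 108 to 1021. Intervals and floors here cover counting error only.

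H2-Aa codes for the alpha chain that pairs with the product of H2-Ab1. It had 1, 4 and 2 counts after 24 h of JNJ and 1, 0 and 0 after 24 h of DMSO. The groups overlapped, and 7 counts against 1 gave a ratio of 8.00 with a counting interval of 1.03 to 361. Thus the beta chain gene was on while the alpha chain gene, its neighbour in the genome, stayed near the floor. Per kilobase of exon, with counts pooled over the 3 libraries, the level of H2-Ab1 was 129.1 times that of H2-Aa. That ratio rests on 7 counts of H2-Aa, and how reads shared by related H2 genes were handled is not known.

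H2-Eb1, the beta chain gene of the I-E molecule, had 14, 38 and 28 counts after 24 h of JNJ. It had none in any DMSO, JNJ 2 h, shLuc or shHdac1 library, and 1, 0 and 1 in shHdac2. With the floor of 3 counts taken over the DMSO 24 h group, it was at least 30.5-fold higher with JNJ at 24 h. Its level there was 0.894 ± 0.464 CPM.

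H2-DMa and H2-DMb1 code for the alpha and beta chains of H2-DM, the peptide exchange factor. H2-DMa was the member with most reads before treatment. It had 334, 388 and 241 counts after 24 h of JNJ against 53, 74 and 25 with DMSO. The groups did not overlap, at 10.2 ± 1.98 and 1.38 ± 0.618 CPM, a ratio of 7.24 (counting interval 6.10 to 8.65). H2-DMb1 had 12, 35 and 21 counts with JNJ and none with DMSO at 24 h, at least 25.9-fold higher against the same floor. The rest of the series held at most 3 counts of H2-DMb1 in any library. In the reference annotation H2-DMa overlaps Brd2 on the opposite strand, and H2-Eb1 overlaps a predicted gene. Since the strand counted is not given in the sources used here, reads of such pairs cannot be told apart, nor is it known how reads shared by related H2 genes were handled. Brd2 itself, a bromodomain protein gene, was lower with JNJ at 24 h (211.6 ± 40.3 against 366 ± 22.96 CPM, log2 change -0.79, adjusted p = 0.0301). Leaving out any library but JNJ 24 h replicate 2 ended that call (adjusted p up to 0.111 without JNJ 24 h replicate 3).

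Cd74 was low throughout. It had 7, 11 and 4 counts after 24 h of JNJ and 3, 2 and 1 with DMSO. The JNJ libraries all lay above the DMSO ones, at a ratio of 4.19 (counting interval 1.65 to 12.6). The level with JNJ at 24 h, 0.230 ± 0.106 CPM, was nevertheless close to the 0.232 ± 0.148 CPM of DMSO at 2 h and the 0.216 ± 0.170 CPM of shLuc.

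Ciita, the gene of the class II transactivator, had 7, 15 and 3 counts after 24 h of JNJ against 7, 26 and 9 with DMSO. The groups overlapped, at 0.260 ± 0.193 and 0.376 ± 0.258 CPM, and the ratio was 0.680 (counting interval 0.397 to 1.14). The fitted log2 change of -0.53 became 0.17 without DMSO 24 h replicate 2 and -1.29 without JNJ 24 h replicate 2. Ciita in JNJ 24 h replicate 2 (0.480 CPM) lay above DMSO 24 h replicates 1 and 3 (0.202 and 0.254 CPM). At these counts the direction of Ciita at 24 h is not known. Its part in the levels of the class II genes was not tested. Ciita overlaps Dexi on the opposite strand, with the same limit on its reads.

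Between JNJ and DMSO at 24 h the groups did not overlap for 5 of the 7 genes, all higher with JNJ. Over all 14467 genes fitted the share without overlap was 55.5% (28.6% higher with JNJ), and 33.1% were called. Since the 24 h values chose the genes, nothing is read from that count.

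**Figure D1:**
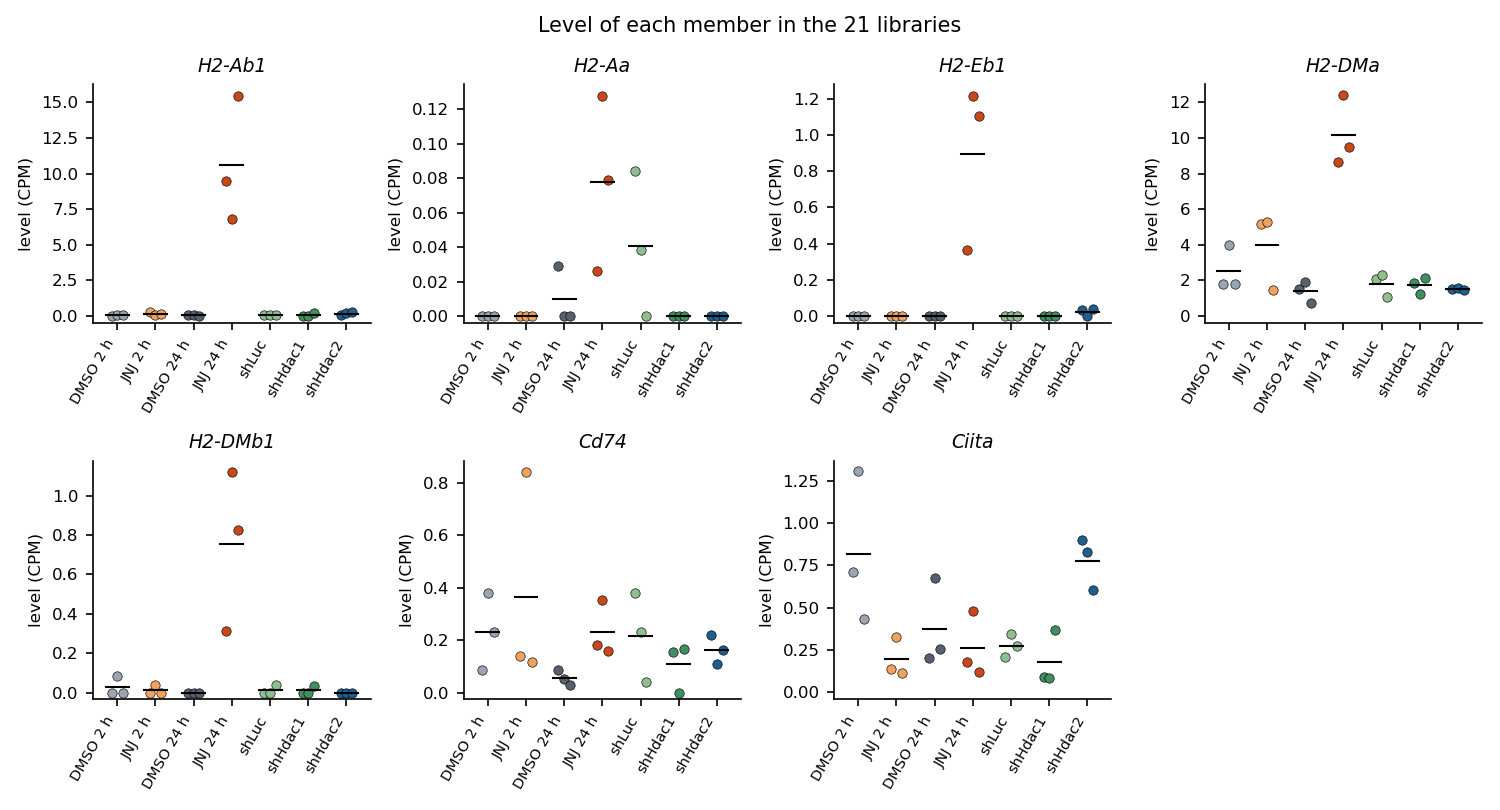
Level of each gene in CPM (vertical axis, a separate scale per panel) in the 21 libraries, by group on the horizontal axis. Points are libraries and bars are means of 3; drug and hairpin libraries were scaled apart. H2-Ab1, H2-Eb1, H2-DMa and H2-DMb1 are highest in JNJ 24 h, while Ciita is highest in DMSO 2 h and shHdac2.

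Levels per kilobase of exon in the JNJ 24 h libraries gave the order of the genes. H2-Ab1 came first at 8.74 ± 3.67 CPM per kb and H2-DMa next at 3.82 ± 0.741, and their libraries did not overlap (5.63 to 12.8 and 3.24 to 4.66 CPM per kb). In CPM they were alike (10.6 ± 4.44 and 10.2 ± 1.98), so this gap rests on the exon lengths used, 1.212 and 2.668 kb. Those lengths join the exons of all transcripts of a gene, and the annotation behind the counts is not known. H2-DMb1 and H2-Eb1 shared a level, both at 0.536 CPM per kb (SD 0.292 and 0.278), so they did not differ beyond their spread. The lowest libraries of both lay within the range of Cd74, which followed at 0.163 ± 0.0749 and H2-Aa at 0.0688 ± 0.0453 CPM per kb, and these overlapped slightly in range. Ciita was lowest at 0.0316 ± 0.0235 CPM per kb and overlapped H2-Aa. With counts pooled over the 3 libraries, the level of H2-Ab1 per kb was 2.22 times that of H2-DMa, 16.7 times that of H2-Eb1 and 51.6 times that of Cd74, the gene of the chaperone that accompanies class II chains.

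**Figure D2:**
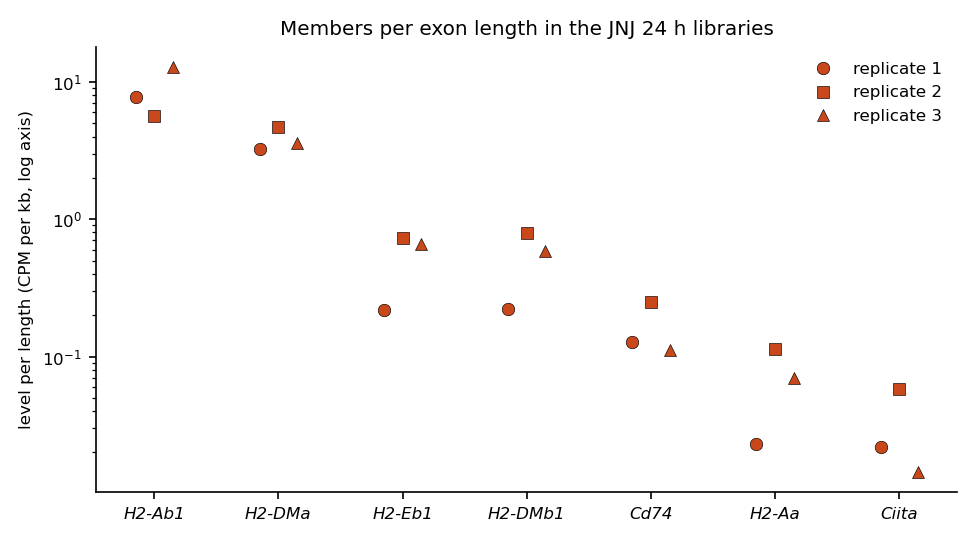
Level per exon length (CPM per kb, log axis) of the 7 genes in the 3 JNJ 24 h libraries, with a marker shape per replicate. H2-Ab1 is highest in replicate 3 and lowest in replicate 2, whereas the other 6 genes are highest in replicate 2.

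The genes also differed in which JNJ 24 h library was highest. H2-Ab1 was lowest in replicate 2, at 6.82 CPM, and highest in replicate 3, at 15.5 CPM. H2-Aa, H2-Eb1, H2-DMa, H2-DMb1, Cd74 and Ciita were all highest in replicate 2. For H2-Eb1 this was 1.22 CPM in replicate 2 against 0.363 in replicate 1, and for Ciita 0.480 against 0.181. Ciita was also highest in replicate 2 in DMSO 2 h, JNJ 2 h, DMSO 24 h and shLuc, though not in shHdac1 or shHdac2. These orders rest on 3 libraries, and no test was made of them.

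Across all 21 libraries, log2(CPM + 0.5) of H2-Eb1 and H2-DMb1 had a Pearson r of 0.988, and that of H2-Ab1 with H2-Eb1 was 0.934. Ciita had an r of -0.22 with H2-Ab1 and -0.07 with H2-DMa, and Cd74 had 0.11 with H2-Ab1. These values are descriptions without a test. For H2-Ab1, H2-Eb1 and H2-DMb1 they mostly express the distance of the 3 JNJ 24 h libraries from the rest.

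**Figure D3:**
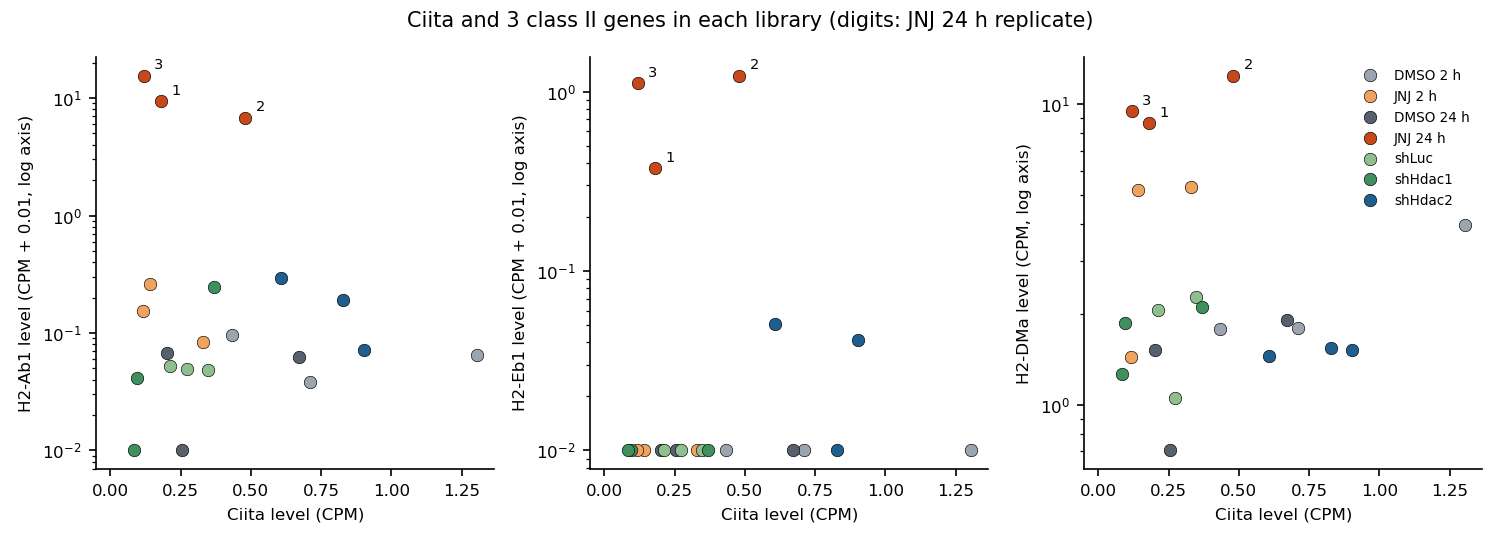
Ciita level (CPM, horizontal axis) against H2-Ab1 and H2-Eb1 (CPM + 0.01, log axis) and H2-DMa (CPM, log axis) in each of the 21 libraries, coloured by group. Digits number the JNJ 24 h replicates. The JNJ 24 h libraries lie at the top of each panel at Ciita levels of 0.118 to 0.480 CPM, within the range of the other groups.

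At 2 h the comparison of JNJ with DMSO was not used to choose the genes and was tested. Of the 7, 6 passed the filter on low counts over the drug and solvent libraries, but H2-Ab1, H2-Eb1, H2-DMb1 and Cd74 passed it only through JNJ 24 h, so no p is given for them. The others, H2-DMa and Ciita, were not called (adjusted p under 0.05), where 13.7% of all genes were. H2-Ab1 had 9, 2 and 5 counts with JNJ and 1, 2 and 3 with DMSO. The groups overlapped, and the ratio was 2.91 (counting interval 1.08 to 9.08). H2-DMa had 185, 145 and 50 counts with JNJ and 63, 146 and 62 with DMSO (log2 change 0.66, adjusted p = 0.427). H2-Eb1 and H2-Aa had no count in either group, and H2-DMb1 had 1 against 3 in all. Cd74 had 5, 23 and 4 counts with JNJ against 3, 14 and 8, a ratio of 1.40 (counting interval 0.802 to 2.46).

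Ciita was the only gene of the 7 whose groups did not overlap at 2 h, as was the case for 25.6% of all genes (11.7% lower with JNJ). It had 5, 9 and 4 counts with JNJ and 25, 48 and 15 with DMSO, or 0.195 ± 0.117 against 0.816 ± 0.446 CPM. The ratio was 0.223 (counting interval 0.126 to 0.374) and the log2 change -2.08 (SE 0.72). It missed the threshold at an adjusted p of 0.0745, and passed it in a fit of all 21 libraries at 0.0290. With DESeq2 it was not called (adjusted p = 0.0512), nor with any library of the comparison left out (0.0588 to 0.232).

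In DMSO alone, from 2 h to 24 h, edgeR called none of the 14467 genes (0%), H2-DMa and Ciita included. At an unadjusted p under 0.05 there were 1417 genes (9.79%), and DESeq2 called 16. Ciita had 25, 48 and 15 counts at 2 h and 7, 26 and 9 at 24 h (log2 change -1.10, adjusted p = 0.558). Cd74 had 3, 14 and 8 counts at 2 h and 3, 2 and 1 at 24 h (ratio 0.235 with a counting interval of 0.0789 to 0.587). H2-DMa gave a log2 change of -0.86 (adjusted p = 0.556). H2-Ab1 had 6 counts in all at 2 h and 4 at 24 h.

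Among the hairpin libraries only H2-DMa and Ciita passed the filter on low counts, and neither was called. H2-DMa had 49, 59 and 27 counts in shLuc, 60, 30 and 63 in shHdac1 and 49, 43 and 36 in shHdac2. Its log2 change against shLuc was -0.03 (adjusted p = 0.986) in shHdac1, where 0.749% of genes were called, and -0.25 (adjusted p = 0.783) in shHdac2, where 1.68% were. With the replicate number as a block, genes called rose from 102 to 523 and from 229 to 801, and neither H2-DMa nor Ciita was among them. The counting intervals of its ratios to shLuc were 0.786 to 1.27 in shHdac1 and 0.657 to 1.08 in shHdac2.

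Ciita had 5, 9 and 7 counts in shLuc, 3, 2 and 11 in shHdac1 and 29, 23 and 15 in shHdac2. All shHdac2 libraries lay above all others of the hairpin series, at 0.779 ± 0.154 CPM against 0.277 ± 0.0686 in shLuc and 0.182 ± 0.161 in shHdac1. The log2 change in shHdac2 against shLuc was 1.48 (SE 0.53, adjusted p = 0.218), with a ratio of 2.84 (counting interval 1.72 to 4.88). Without overlap were 21.2% of all genes in that comparison. Against shHdac2, shHdac1 gave -2.05 (SE 0.55, adjusted p = 0.105), where 2.06% of genes were called and 26.7% did not overlap. Without shHdac1 replicate 3 the change was -3.07 (adjusted p = 0.0298). It was not called with any other library left out (0.135 to 0.380) or with all 21 libraries in 1 fit (0.253). DESeq2 (adjusted p = 0.0547) and the replicate block (adjusted p = 0.0721) came nearer the threshold without a call. For shHdac1 against shLuc the log2 change was -0.58 (adjusted p = 0.795).

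H2-Ab1 had 1, 1 and 1 counts in shLuc, 1, 0 and 7 in shHdac1 and 2, 5 and 7 in shHdac2. The shHdac2 libraries lay above the shLuc ones, with 14 counts against 3 and a ratio of 4.15 (counting interval 1.16 to 22.5). Fitted without a filter, the change had an adjusted p of 0.542. At 0.175 ± 0.110 CPM the level in shHdac2 was near the 0.157 ± 0.0901 CPM of JNJ at 2 h, and 1 library of each was below the floor. The other 4 genes had at most 9 counts in any hairpin library (Cd74 in shLuc replicate 1).

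The class II region of chromosome 17 was followed gene by gene, because Brd2, Psmb8 and others lie between class II genes. H2-Oa and H2-Ob code for H2-DO, which restrains H2-DM. H2-Oa had 0, 13 and 6 counts and H2-Ob 2, 7 and 4 after 24 h of JNJ, against none with DMSO at 24 h. H2-Eb2 had 1, 4 and 1, and H2-DMb2, a close paralog of H2-DMb1, had none in any library. None of the 6 further class II region genes in the table passed the filter.

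Between H2-DMb1 and H2-Ob lie the immunoproteasome genes Psmb9 and Psmb8 and the peptide transporter genes Tap1 and Tap2, which serve class I presentation. After 24 h of JNJ Psmb9 had 120, 134 and 106 counts, against 3, 4 and 8 with DMSO. Its levels were 3.86 ± 0.651 and 0.139 ± 0.0760 CPM. It passed the filter on low counts only through JNJ 24 h, so no p is given for it. In the same comparison Tap1 rose from 0.645 ± 0.0436 to 11.1 ± 2.49 CPM (log2 change 4.09, adjusted p = 0.000388). Tap2 rose from 0.462 ± 0.0997 to 12.8 ± 1.36 CPM (log2 change 4.78, adjusted p = 0.000101). Psmb8 gave a log2 change of 3.31 (adjusted p = 0.0360), a call that ended without JNJ 24 h replicates 1 or 3 or DMSO 24 h replicates 2 or 3 (adjusted p up to 0.111).

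H2-Ke6, a steroid dehydrogenase gene beyond H2-Oa, rose by a log2 change of 1.16 (adjusted p = 0.00111). Ring1, Slc39a7, Rxrb and Col11a2, on the same side, were not called at 24 h (log2 changes -0.05, 0.11, -0.29 and 1.28). At 2 h Tap2 and Tap1 gave 2.10 and 1.83 (adjusted p = 0.0154 and 0.0447), and both calls were lost without JNJ 2 h replicate 1 (0.0750 and 0.129). Beside Ciita on chromosome 16, Dexi gave 0.60 at 24 h (adjusted p = 0.109) and Nubp1 -0.81 (adjusted p = 0.0770), while Clec16a rose by 1.08 (adjusted p = 0.00688).

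**Figure D4:**
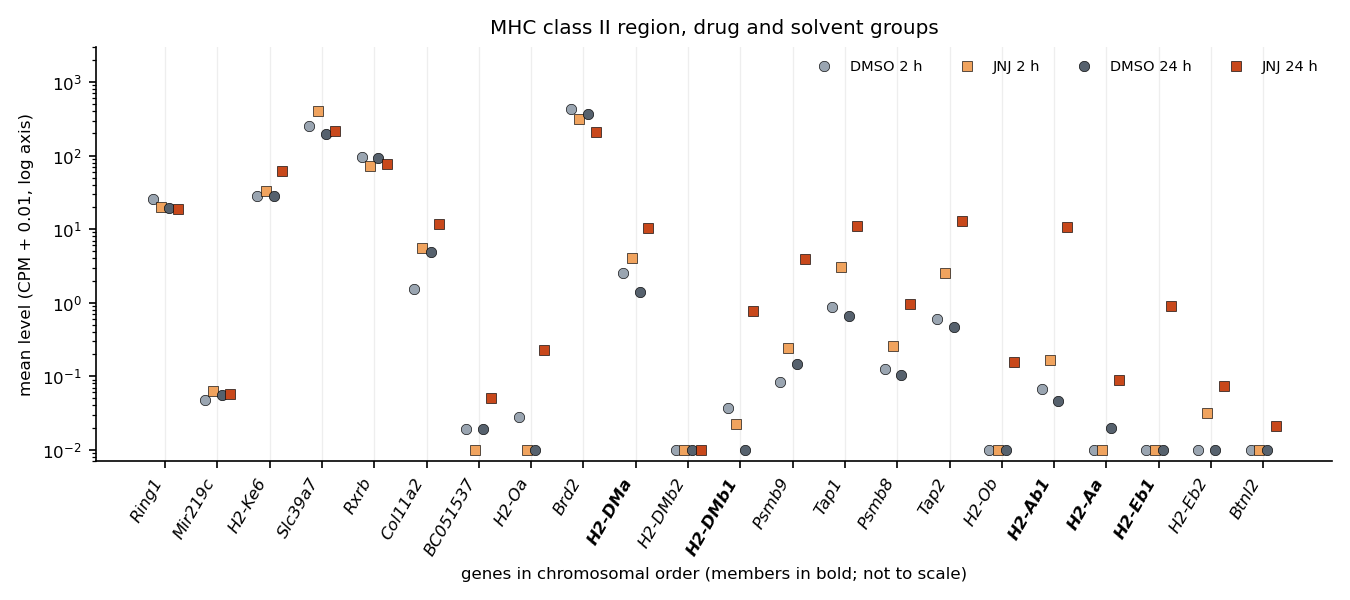
Mean level (CPM + 0.01, log axis) of the genes of the class II region in chromosomal order, not to scale, in the 4 drug and solvent groups, each of 3 libraries. Genes from H2-DMa to H2-Eb1 are mostly highest in JNJ 24 h; H2-DMb2 is at 0 in all groups.

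The genes of the proteins that hold CIITA on class II promoters were followed next, at the level of RNA. Of the 7 genes coding for RFX, NF-Y and CREB proteins, 3 fell and none rose after 24 h of JNJ (median log2 change -0.25, against 0.01 over all genes). Of all genes tested, 15.1% fell and 18.1% rose at 24 h, and 4.59% fell and 9.11% rose at 2 h. The 3 were Nfyc (log2 change -1.11, adjusted p = 0.00326), Nfyb (-0.79, adjusted p = 0.00438) and Creb1 (-0.84, adjusted p = 0.0104). The RFX genes Rfx5, Rfxap and Rfxank, whose loss abolishes class II expression in human immunodeficiency, gave -0.03, 0.15 and -0.18 and were not called. At 2 h, 4 of the 7 fell and 1 rose (median -0.56, against 0.03 over all genes). Of these calls Nfya (-0.97, adjusted p = 0.00183) and Nfyc (-1.08, adjusted p = 0.00943) held under every setting tried.

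Of 10 coactivators known to work with CIITA, 5 fell and none rose at 24 h (median -0.45). Carm1, a histone arginine methyltransferase gene, fell from 164.2 ± 24.1 to 67.7 ± 8.50 CPM (log2 change -1.28, adjusted p = 0.000782). The acetyltransferase genes Kat2b (-1.13, adjusted p = 0.00460) and Crebbp (-0.64, adjusted p = 0.00682) fell too. The call of Smarca4, a chromatin remodeller gene (-0.60, adjusted p = 0.0489), was lost under several settings, without JNJ 24 h replicate 1 among them (0.125). At 2 h Crebbp alone was called (-0.65, adjusted p = 0.0151, and 0.0545 without JNJ 2 h replicate 2). In the hairpin libraries Ncoa1, another coactivator gene, fell in shHdac1 against shLuc (-0.58, adjusted p = 0.0474), and no promoter-binding factor was called against shLuc. Nfya was lower in shHdac1 than in shHdac2 (-0.97, adjusted p = 0.0209). Both calls were lost without shHdac1 replicate 1 (0.215 and 0.0971).

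The route by which interferon gamma turns on Ciita runs through its receptor, JAK kinases and interferon regulatory factors. Of 13 such genes 11 were tested, and at 24 h only Irf8 was called (median 0.20). It codes for a regulatory factor of the myeloid and B cell lineages. Irf8 rose from 1.98 ± 0.639 to 14.4 ± 3.07 CPM (log2 change 2.86, adjusted p = 0.000350). Irf1 gave 0.45 (adjusted p = 0.166). With the replicate number as a block, library totals or all 21 libraries in 1 fit, 3 genes of this list rose at 24 h. With DESeq2 or no filter on low counts 2 rose, and with RLE size factors 1. At 2 h Ifngr1 alone was called (0.89, adjusted p = 0.0472, and 0.221 without JNJ 2 h replicate 1). Between the hairpins Irf8 was lower in shHdac1 than in shHdac2, at 1.86 ± 0.461 against 5.54 ± 0.536 CPM (log2 change -1.57, adjusted p = 0.0398, and 0.175 without shHdac1 replicate 1).

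Next came genes that prepare class II peptides, the endosomal proteases with their inhibitor gene Cst3 and the reductase gene Ifi30. Of 8 such genes 6 were tested, and 4 rose and none fell at 24 h (median 0.84). Ctsd, coding for cathepsin D, rose from 176.9 ± 25.6 to 593 ± 131 CPM (log2 change 1.74, adjusted p = 0.000481). Lgmn, coding for asparaginyl endopeptidase, rose from 44.1 ± 3.42 to 123.6 ± 28.0 CPM (log2 change 1.49, adjusted p = 0.000770). Ctsl and Ctsb gave 0.81 and 0.79, and their calls (adjusted p = 0.0309 and 0.0358) were lost without JNJ 24 h replicate 3 (0.148 and 0.112). At 2 h 4 of the 6 rose (median 0.93), and each of these calls was lost without JNJ 2 h replicate 1. Among 9 co-stimulation genes 4 were tested, and Icam1, an adhesion ligand of T cells, rose at 2 h (log2 change 3.18, adjusted p = 0.00402) and at 24 h (2.88, adjusted p = 0.00244).

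**Figure D5:**
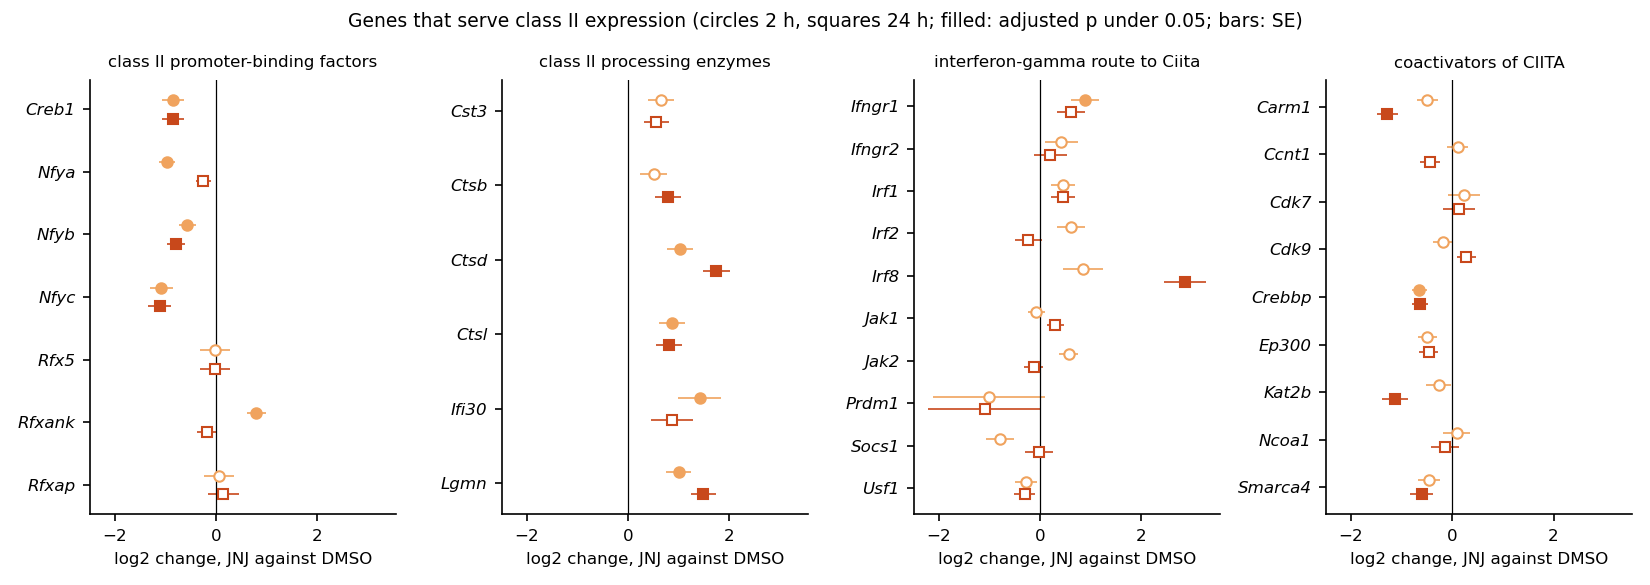
Log2 change, JNJ against DMSO, of tested genes of 4 lists (horizontal axis), with circles for 2 h and squares for 24 h; filled markers have an adjusted p under 0.05 and bars are standard errors. Promoter-binding factors and coactivators lie mostly at or below 0, and processing enzymes above it.

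Markers of professional antigen-presenting cells were followed because these cells carry class II. Summed over the 20 marker genes in the table they came to 22.3 to 25.6 CPM with JNJ at 24 h against 7.17 to 10.9 with DMSO, and 25.6 to 30.4 against 8.20 to 10.2 at 2 h. The sums in the hairpin groups were 8.76 to 15.4 CPM (shLuc), 8.51 to 9.40 CPM (shHdac1) and 12.0 to 17.2 CPM (shHdac2). Most of the sum was Zbtb46, a transcription factor gene of classical dendritic cells, at 18.8 ± 2.03 against 5.86 ± 1.52 CPM at 24 h (log2 change 1.68, adjusted p = 0.000422). It was the only marker called of 4 tested, though 4 rose without the filter on low counts and 3 with DESeq2. Some markers had few reads. Over the JNJ 24 h libraries together, Ms4a1 and Cd53 had no count, Aif1 1, Spi1 2, Csf1r 3 and Ptprc, the pan-leukocyte gene, 4. Other markers of the same list had more reads. From DMSO to JNJ at 24 h, summed counts went from 1 to 25 for Laptm5, from 0 to 19 for Itgam, from 3 to 24 for Flt3, from 1 to 13 for Emr1, from 19 to 34 for Cd79a and from 120 to 170 for Pax5. Cd68 had 158 and 172, and Fcer1g 20 and 21. The part of these markers in the class II values was not tested. Of the 11 medulloblastoma markers 5 fell and none rose at 24 h, and of 8 tested markers of other brain cells 1 rose and 2 fell. In bulk RNA a higher level in every cell and a high level in few cells cannot be told apart.

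The genes whose levels followed H2-Ab1 most closely over the 21 libraries were also on mainly with JNJ at 24 h. They were Hpcal4 (Pearson r of log2(CPM + 0.5) 0.991), Atp2a3 (0.990), Pik3ap1 (0.987), Gchfr (0.983) and Plk5 (0.982), out of 12553 genes with at least 1 CPM in some group. Hpcal4 had 247 counts over the JNJ 24 h libraries and none with DMSO at 24 h, and Pik3ap1 339 and 3. For Ciita the closest were Trib1 (0.790), Tal1 (0.784), Zfp36l2 (0.759), Acta2 (0.736) and Zfp646 (0.731). Trib1 had 37.4 ± 3.00 CPM in DMSO 2 h and 17.9 ± 2.77 in JNJ 2 h. For Cd74 the closest was Hexa (0.807), coding for a lysosomal hexosaminidase subunit, followed by Leprel4 (0.786), Hist1h4h (0.785), Fam96b (0.779) and Tmem106c (0.777). Likeness over these libraries is a description, since they share their groups.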

How the data were processed

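Counts are the whole-number reads per gene symbol that the authors deposited, 1 column per library, not normalized. Alignment used STAR 2.5.1b and the build was mm9, per the submitters' processing notes. Per the labels' protocols, libraries were made with a stranded mRNA kit and read single-end. Not given in the sources used here are the annotation, the strand counted and how multiply mapped reads were handled.

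The drug and solvent libraries (12, 14467 genes) and the hairpin libraries (9, 13612 genes) went into separate edgeR 4.0.16 fits (R 4.3.3): filterByExpr (minimum count 10, total 15), TMM, quasi-likelihood F tests with group as the only term, two-sided, Benjamini-Hochberg over all genes, called under 0.05. The test was checked on simulated counts. Floors are 3 counts, per library or, for folds, over a group. Promoters came from RefSeq (GRCm38.p6), and 4 of the 7 genes had one. Exon lengths and overlaps came from GENCODE M21 on GRCm38. No replicate pair was a duplicate (lowest mean chi-square per gene 3.58).

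The 7 genes and the gene lists were chosen with earlier results of these data known. Named were the 7 genes, Hdac1, Hdac2, called list members (the 4 of lowest p, and any others said to be called), and the 5 genes most like H2-Ab1, Cd74 and Ciita. Neighbours in the genome were named after their values were seen. Replicate numbers were taken to pair libraries where residuals of same-numbered libraries correlated above 0.1 in all 3 pairs, which held at 24 h (0.566, 0.656 and 0.609) and in the hairpin groups. Alternatives were RLE size factors, library totals, no filter, a replicate block, 1 fit of all 21 libraries, DESeq2 1.42.0, and leaving out each library. Chosen after seeing the data was a drug fit without the JNJ 24 h libraries, which left 13860 genes. Some members of the gene lists are counted but not reported here by name.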

Additional observations from a re-analysis of the deposited data

How the results depend on the processing

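Outside the 24 h contrast, 185 fitted log2 changes under other settings kept their direction and side of the threshold, 5 reversed and 3 became called. They cover H2-Ab1, H2-DMa, H2-DMb1, Cd74 and Ciita in the drug fit, and only H2-DMa and Ciita in the hairpin fit. In the drug fit those of H2-Ab1, H2-DMb1 and Cd74 belong to genes that entered it only through JNJ 24 h, so nothing is read from their side of the threshold. Reversed among these were H2-DMb1 at 2 h (1.92 without DMSO 2 h replicate 2; range -3.13 to 1.92) and Cd74 at 2 h (-0.85 without JNJ 2 h replicate 2; range to 1.13). Also reversed was H2-DMa in shHdac1 against shLuc (0.15, 0.08 and 0.17 without shHdac1 replicate 2, shLuc replicate 1 and shLuc replicate 2; range from -0.30). Ciita at 2 h was called with the replicate block (log2 -2.07, adjusted p = 0.00519) and with all 21 libraries, and under no other setting. Without the JNJ 24 h libraries, an alternative chosen after seeing the data, H2-DMa and Ciita were not called at 2 h (adjusted p = 0.4995 and 0.0853) or between DMSO times (0.666 and 0.640), and 1379 and 0 genes were. At 24 h, where the 7 genes have no test, other settings were followed for H2-Ab1, H2-DMa, Cd74 and Ciita only. With a library left out, log2 changes ran from 7.50 to 8.43 for H2-Ab1, 2.56 to 3.17 for H2-DMa and 1.56 to 2.41 for Cd74. That of Ciita changed sign (-1.29 to 0.17, the latter without DMSO 24 h replicate 2). The cause was not tested.

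With the replicate block the genes called numbered 3455 at 2 h (1982 without), 6633 at 24 h (4791), 108 for DMSO 24 h against 2 h (0), 523 for shHdac1 (102), 801 for shHdac2 (229) and 886 for shHdac1 against shHdac2 (280). At 2 h residual correlations were 0.651 and 0.585 for replicates 2 and 3 but -0.00469 for replicate 1. Between DMSO times they were 0.520 and 0.575 but -0.219 for replicate 1. There the numbers therefore did not pair all libraries. With all 21 libraries in 1 fit the genes called numbered 3185 at 2 h, 8 for shHdac1, 27 for shHdac2 and 76 between the hairpins. DESeq2 called 16 for DMSO, 561, 821 and 841 for these 3. Without a filter DMSO gave 2. Leaving out a library gave 1043 to 3365 at 2 h, 3393 to 4021 at 24 h, 0 to 44 for DMSO, 2 to 1512 for shHdac1, 12 to 1212 for shHdac2 (both highest without shLuc replicate 3) and 30 to 272 between the hairpins. Library totals moved the median of all genes at 24 h from 0.01 to 0.17 and the share of calls that were higher from 54.5% to 68.3%. Of the other called genes named, 12 of 19 at 2 h and 8 of 32 at 24 h lost their call under some setting. So did 1 of 2 for shHdac1 against shLuc, 1 of 2 for shHdac2 against shLuc and 5 of 5 between the hairpins. No block changed another call of the 7 genes. Depth limits H2-Aa, Cd74 and, before 24 h of JNJ, H2-Ab1, H2-Eb1 and H2-DMb1, which lay at or near the floor.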
